A study of Homo sapiens with 21 samples.

Results

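Glycolysis and hypoxia response genes were followed through UM171 exposure in OCI-AML5, a human acute myeloid leukemia cell line. The group was a list of 43 named genes out of 58174 gene identifiers, chosen by role and matched by symbol: 3 glucose transporters, 3 hexokinases, 7 genes of upper and 6 of lower glycolysis, 2 PFKFB regulators, 4 genes of lactate production and export, 2 pyruvate dehydrogenase kinases, 3 pentose phosphate genes, 4 genes of the hypoxia-inducible factors and their prolyl hydroxylases, and 9 known targets of these factors. UM171 is a small molecule used to expand blood stem cells, and it was labelled as used at 500 nM. Stranded poly(A) RNA was sequenced in 7 groups of 3 libraries, all OCI-AML5. Control cells received DMSO, the solvent, with a labelled time of 72 h, or UM171 for 6, 24, 48 or 72 h, so that only the 72 h comparison was matched for time. The labels name no guide for these control cells, while the study names a guide against the AAVS1 safe harbor site for the controls of its sgEPCR comparison. The other cells were clones expressing sgEPCR, a guide against PROCR, which encodes the protein C receptor EPCR, and the labels call them EPCR null in one field and give the genotype as EPCR knockdown in another. They received DMSO or UM171 for 24 h, and the labels do not say which clone each library came from.

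Glycolysis breaks glucose down to pyruvate, and lactate dehydrogenase turns pyruvate into lactate when it is not passed to the mitochondria. When oxygen is low, the prolyl hydroxylases stop marking HIF-1 alpha and HIF-2 alpha for destruction, and these factors raise glucose transporters, glycolytic enzymes, pyruvate dehydrogenase kinase 1 and genes such as VEGFA and BNIP3. HIF levels are set mainly on the protein, so the HIF1A transcript is not a readout of the pathway's activity, while target transcripts such as EGLN3 and ANKRD37 are commonly read for it.

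The HIF factors bind DNA at the letters ACGTG or GCGTG. Promoters of 4 members are shown so that these letters can be seen beside genes that moved in opposite directions: the HIF targets BNIP3, ANKRD37 and P4HA1, which rose at 72 h, and ALDOC, which had the deepest fall at 24 h. They were chosen with these values known. Each line gives the 250 bases before the transcription start, from RefSeq on GRCh38.p14, 5′ to 3′ on the gene's strand, with ACGTG and GCGTG on either strand in capitals. The windows lie at chr10:131981924-131982173 on the minus strand for BNIP3, chr4:185396591-185396840 on the plus strand for ANKRD37, chr10:73096867-73097116 on the minus strand for P4HA1 and chr17:28576896-28577145 on the minus strand for ALDOC.
BNIP3: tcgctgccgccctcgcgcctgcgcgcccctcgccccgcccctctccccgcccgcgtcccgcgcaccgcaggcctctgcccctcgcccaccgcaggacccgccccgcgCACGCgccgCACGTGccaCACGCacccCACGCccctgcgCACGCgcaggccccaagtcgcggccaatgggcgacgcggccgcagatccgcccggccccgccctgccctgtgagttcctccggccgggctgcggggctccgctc
ANKRD37: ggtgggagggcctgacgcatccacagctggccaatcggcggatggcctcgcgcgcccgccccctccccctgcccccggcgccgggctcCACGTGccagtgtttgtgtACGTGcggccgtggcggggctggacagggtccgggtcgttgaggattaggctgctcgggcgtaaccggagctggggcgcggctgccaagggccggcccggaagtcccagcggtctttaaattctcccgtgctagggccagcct
P4HA1: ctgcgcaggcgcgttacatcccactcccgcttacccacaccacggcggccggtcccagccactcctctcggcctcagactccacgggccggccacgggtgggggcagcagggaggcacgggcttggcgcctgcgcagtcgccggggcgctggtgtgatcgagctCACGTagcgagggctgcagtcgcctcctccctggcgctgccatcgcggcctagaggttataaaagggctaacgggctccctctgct
ALDOC: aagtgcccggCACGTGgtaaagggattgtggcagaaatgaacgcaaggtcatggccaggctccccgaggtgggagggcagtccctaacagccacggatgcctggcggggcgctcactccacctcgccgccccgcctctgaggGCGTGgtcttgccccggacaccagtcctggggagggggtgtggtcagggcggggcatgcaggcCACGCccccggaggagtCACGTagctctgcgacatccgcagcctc

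Both motifs were searched on both strands, and the palindrome CACGTG counts once on each strand. BNIP3 held 6 matches, ALDOC 5, ANKRD37 3 and P4HA1 1. A promoter row was matched for 38 of the 43 members, and 23 of these (60.5%) held at least 1 match, against 43.1% of all 27305 promoters in the table. ACGTG alone was in 15 of the 38 (39.5%) and in 18.7% of all promoters. All 6 HIF targets with a promoter row held a match, and neither of the 2 glucose transporters with a row did. A match describes letters in this window and is not a mapped binding site.

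The libraries held 24.3 to 51.5 M counts (median 33.9 M). Mitochondrial genes took 7.73% to 13.5% of the counts in 19 libraries, but 35.9% in replicate 1 of sgEPCR DMSO and 32.2% in replicate 2 of sgEPCR UM171. The members summed to 7502 and 7644 TPM (a level scaled for gene length and for depth) in these 2 libraries and to 18970 to 21736 TPM in the other 19. They also took a smaller share of the non-mitochondrial counts, 1.53% and 1.40% against 1.97% to 2.28%, so the sgEPCR comparisons are also given without this pair. PROCR, the targeted gene, was at 3.37, 4.30 and 3.38 TPM in DMSO and at 10.3 to 13.3 TPM after 6 h of UM171, 48.5 in each library at 24 h, 36.9 to 45.3 at 48 h and 27.3 to 31.3 at 72 h. It was at 2.30, 4.53 and 3.93 TPM in sgEPCR DMSO, overlapping the DMSO controls, and at 8.94, 4.23 and 8.41 TPM in sgEPCR UM171, below every UM171 control library. All 7 myeloid genes listed as markers had counts in every library, from MPO at 0.48 to 9.08 TPM and CSF2RA at 2.64 to 21.3 up to SPI1 at 95.7 to 426 and PTPRC at 102 to 579, with ITGAM at 2.84 to 100, CEBPA at 6.63 to 92.3 and CD33 at 34.6 to 179. Their summed TPM ranged over 857 to 884 in DMSO, 630 to 780 in the UM171 groups of control cells, 404 to 542 in sgEPCR DMSO and 747 to 753 in sgEPCR UM171. The B cell gene MS4A1 and the erythroid gene ALAS2 were at 0 in all libraries. The summed TPM of 3 T cell genes ranged over 0.14 to 0.80 in DMSO and 14.7 to 18.6 at 72 h, with CD3E at 0.11 at most in any library and CD3D at up to 18.8. That of 3 B cell genes ranged over 9.48 to 10.4 in DMSO and 20.8 to 23.8 at 72 h, and CD79A made up most of it. Their part in the results was not tested.

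The question of the time course was which genes UM171 changes, and when. Among the members, UM171 raised the glucose transporter SLC2A3, the phosphofructokinase PFKM, the regulator PFKFB4, the kinase PDK1, the enolase ENO2 and a growing set of HIF targets. At 72 h the most abundant glycolytic enzymes other than GPI were within 2-fold of DMSO. Some had moved further before, such as PKM with a log2 fold change of 0.99 at 48 h. GPI and ALDOC, enzymes of upper glycolysis, were the 2 members past both limits on the low side at 72 h. Here both limits mean an adjusted p under 0.0001 and a change of more than 2-fold, in the edgeR quasi-likelihood test with Benjamini-Hochberg adjustment over all genes tested, and "rose" or "fell" means an adjusted p under 0.05.

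Of the 42 members that passed the filter on low counts, 1 was past both limits on the high side at 6 h (6.78% of the 16575 genes tested were), 8 at 24 h (9.03%), 13 at 48 h (11.7%) and 15 at 72 h (15%). On the low side there were 1 at 6 h (0.247% of all genes), 5 at 24 h (4.70%), 2 at 48 h (4.67%) and 2 at 72 h (5.80%). At an adjusted p under 0.05, 21 members rose and 15 fell at 24 h (34.9% and 34.8% of all genes), 25 rose and 12 fell at 48 h (37.1% and 35%), and 28 rose and 9 fell at 72 h (38.8% and 36.8%). The median log2 fold change of the members was 0.17 at 24 h, 0.43 at 48 h and 0.53 at 72 h, beside −0.01, −0.01 and 0.02 over all genes tested. The member left out by the filter was CA9, a carbonic anhydrase, at 0 to 0.19 TPM in all libraries. Nothing in the labels says that the control libraries came from separate cultures, so the p-values measure the spread between these libraries, which may be technical. DMSO carried a labelled time of 72 h, so in the 6, 24 and 48 h values UM171 and time cannot be told apart.

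**Figure D1:**
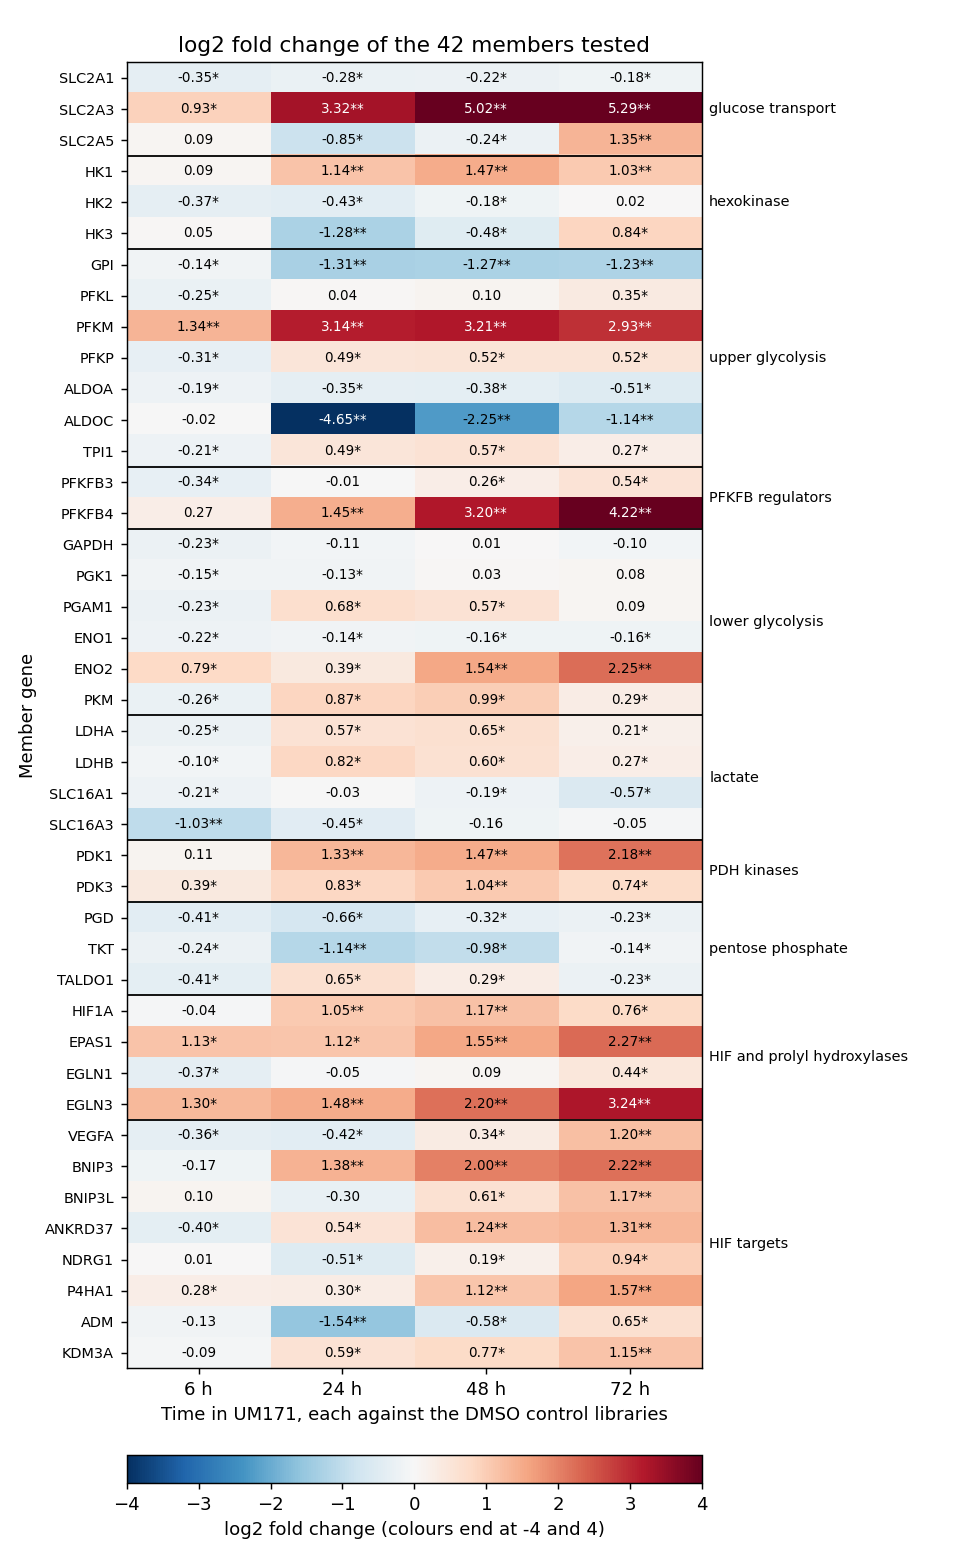
log2 fold change of the 42 tested members (rows, grouped by role) at each time in UM171 against the DMSO control libraries (columns), n = 3 per group, with 2 asterisks past both limits and 1 at an adjusted p under 0.05. SLC2A3 and PFKFB4 reached 5.29 and 4.22 at 72 h, all 8 HIF targets were positive at 72 h, and GPI and ALDOC were negative there.

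At 6 h the members' values were small and depended on the scaling. With TMM scaling 7 members rose and 23 fell (31.8% and 30.3% of all genes). With scaling by total counts 12 rose and 8 fell (44.8% and 14.7%), and with limma on log2(TPM + 1) 7 rose and 3 fell (34.8% and 10.7%). The median of all genes moved from 0.02 to 0.20 and 0.13 under these scalings, and that of the members from −0.16 to 0.02 and 0.00. PFKM (1.34), EGLN3 (1.30), EPAS1 (1.13), SLC2A3 (0.93) and ENO2 (0.79) rose at 6 h by more than these shifts. EPAS1 and EGLN3 were near the floor, with 1 and 8 counts in their lowest library of the series. By the log2 ratio of mean TPM, EPAS1 was at 0.46 and EGLN3 at 1.66. SLC16A3, which exports lactate, was at 92.6, 103 and 102 TPM in DMSO and at 50.3, 60.2 and 57.6 TPM at 6 h, without overlap (log2 fold change −1.03, SE 0.09, adjusted p = 2.7e-08). It was back at 90.5, 105 and 103 TPM at 72 h.

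Among the glucose transporters, SLC2A3 (GLUT3, the high-affinity form) rose at every time and became the main one. SLC2A3 lies at chr12:7919230-8019007 on the minus strand (GRCh38, GENCODE annotation, as for the other gene positions given). Its libraries were at 7.14, 7.17 and 7.25 TPM in DMSO, 13.6, 16.2 and 11.8 at 6 h, 58.8, 62.8 and 88.0 at 24 h, 232, 237 and 169 at 48 h and 253, 271 and 281 at 72 h. No 2 of these groups overlapped, and the third library of 48 h was the lowest of its group. The log2 fold changes were 0.93, 3.32, 5.02 and 5.29 (SE 0.12, 0.11, 0.12 and 0.12), with adjusted p = 3.0e-06, 9.9e-14, 6.9e-16 and 3.0e-16. SLC2A1 (GLUT1), the usual basal transporter, was at 49.6, 53.5 and 51.3 TPM in DMSO and 44.05, 48.7 and 45.1 TPM at 72 h, and its small negative value (−0.18, SE 0.07, adjusted p = 0.020) passed the test. SLC2A5, a fructose transporter, had 10.6, 10.5 and 10.0 TPM in DMSO, 5.24, 5.17 and 6.96 at 24 h and 25.0, 24.1 and 25.6 at 72 h. It fell at 24 h (−0.85) and rose at 72 h (1.35, SE 0.09, adjusted p = 3.7e-10). Of the summed TPM of the 3 transporters, SLC2A3 held 10.4% ± 0.292 (SD, n = 3) in DMSO, 58.6% ± 1.46 after 24 h and 79.1% ± 0.712 after 72 h. The exact two-sided permutation p was 0.1 for each, the smallest that 3 against 3 libraries allow.

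The hexokinases, which trap glucose in the cell, moved apart. HK1, the constitutive form, was at 51.5, 56.0 and 56.0 TPM in DMSO and at 125, 117 and 121 TPM at 24 h, with no overlap. It rose from 24 h on, with log2 fold changes of 1.14, 1.47 and 1.03 (SE 0.05 for each, adjusted p = 1.1e-12, 3.3e-14 and 1.8e-12). HK2, the form HIF induces in many cells, was at 79.2, 82.5 and 85.9 TPM in DMSO, 60.5, 61.0 and 64.9 at 24 h and 83.2, 86.9 and 90.6 at 72 h. It fell at 24 h (−0.43, SE 0.04, adjusted p = 1.1e-08), and its 72 h libraries overlapped those of DMSO. HK3, the myeloid form, was at 120 to 159 counts in DMSO, 48 to 73 at 24 h and 204 to 287 at 72 h, and it was past both limits on the low side at 24 h (−1.28, SE 0.20, adjusted p = 2.2e-05). HK1 held 39.1% ± 0.668 of the hexokinase TPM in DMSO and 65.6% ± 1.01 at 24 h (exact permutation p = 0.1).

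In upper glycolysis, PFKM, the muscle form of phosphofructokinase, rose most, while GPI and ALDOC fell. PFKM (chr12:48105139-48146404, plus strand) was at 2.35, 2.02 and 2.5 TPM in DMSO, 5.63, 5.55 and 6.00 at 6 h, 16.9, 17.7 and 15.9 at 24 h and 13.4, 16.9 and 16.1 at 72 h. With TMM scaling it was the only member past both limits on the high side at 6 h (1.34, SE 0.10, adjusted p = 6.0e-09), and later values were 3.14, 3.21 and 2.93 (SE 0.09 for each). Even so it remained a minor form: its share of the PFKL, PFKM and PFKP total went from 1.55% ± 0.185 to 9.09% ± 0.732 at 48 h. The liver and platelet forms changed less, PFKL by 0.35 and PFKP by 0.52 at 72 h.

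GPI, which converts glucose 6-phosphate to fructose 6-phosphate (chr19:34359480-34402413, plus strand), was at 731, 810 and 806 TPM in DMSO, 825, 827 and 819 at 6 h, 302, 317 and 341 at 24 h and 368, 355 and 371 at 72 h. Every library from 24 h on lay below every DMSO library, with log2 fold changes of −1.31, −1.27 and −1.23 at 24, 48 and 72 h (SE 0.04, adjusted p = 1.1e-13, 1.1e-13 and 1.0e-13). ALDOC, the brain form of aldolase, was at 182, 208 and 197 TPM in DMSO and 216, 228 and 238 at 6 h. It then dropped to 8.01, 6.36 and 12.3 TPM at 24 h and stood at 36.8, 43.7 and 42.04 at 48 h and 101, 96.5 and 97.9 at 72 h. This was the deepest fall among the members at 24 h (−4.65, SE 0.13, adjusted p = 1.1e-14), and it was followed by a rise from 24 to 72 h (3.52, SE 0.13, adjusted p = 4.3e-13). Without UM171, sgEPCR cells at a labelled 24 h were also lower than DMSO in ALDOC (−2.52) and GPI (−1.12). Of the members 12 were higher and 8 lower there (17.4% and 16.3% of all genes), and time and genotype cannot be told apart. ALDOA, the abundant aldolase, was at 2702, 3155 and 3009 TPM in DMSO and 2264, 2185 and 2206 at 72 h (−0.51, SE 0.05). ALDOC held 6.22% ± 0.0814 of the aldolase TPM in DMSO, 0.367% ± 0.0994 at 24 h and 4.24% ± 0.0137 at 72 h. TPI1 rose by 0.49 at 24 h and 0.27 at 72 h.

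The PFKFB enzymes set the level of fructose 2,6-bisphosphate, the main activator of phosphofructokinase. PFKFB4 (chr3:48517684-48562015, minus strand) was at 2.23, 2.31 and 2.85 TPM in DMSO, 4.57, 3.66 and 8.44 at 24 h, 17.0, 15.7 and 18.8 at 48 h and 39.2, 37.5 and 39.1 at 72 h. PFKFB4 rose by 1.45 (SE 0.25, adjusted p = 5.9e-05), then 3.20 (SE 0.22, adjusted p = 9.1e-10) and finally 4.22 on the log2 scale (SE 0.22, adjusted p = 1.2e-11). The third library of 24 h was the highest of its group. PFKFB3 was at 30.1, 27.1 and 25.2 TPM in DMSO and 40.5, 46.6 and 43.3 TPM at 72 h, a smaller rise (0.54, SE 0.05, adjusted p = 4.4e-08). PFKFB4 made up 8.30% ± 1.68 of the PFKFB3 and PFKFB4 total in DMSO and 47.1% ± 2.34 after 72 h (exact permutation p = 0.1).

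In lower glycolysis the abundant enzymes stayed within 2-fold and only the minor enolase passed both limits. GAPDH, often used as a reference gene, was at 5770, 5510 and 5649 TPM in DMSO, 4998, 5442 and 5701 at 24 h and 5502, 5474 and 5713 at 72 h (−0.10, SE 0.05, adjusted p = 0.079). These ranges overlapped. PKM, which makes pyruvate, was at 975, 1018 and 1026 TPM in DMSO, 1837, 1833 and 1960 at 24 h, 2072, 1991 and 1982 at 48 h and 1302, 1297 and 1335 at 72 h. It rose at 24, 48 and 72 h (0.87, 0.99 and 0.29, SE 0.04 for each, adjusted p = 6.1e-12, 8.5e-13 and 4.5e-06). PGAM1, a phosphoglycerate mutase, rose at 24 and 48 h (0.68 and 0.57), and its 72 h value of 0.09 did not pass the test. ENO2, the neuronal enolase, was at 14.6, 15.3 and 15.3 TPM in DMSO, 18.7, 16.6 and 25.3 at 24 h and 73.2, 75.3 and 79.3 at 72 h. The fitted rise was 1.54 at 48 h (SE 0.10, adjusted p = 2.8e-10) and 2.25 at 72 h (SE 0.10, adjusted p = 1.2e-12). ENO1, the abundant enolase, was at 2562, 2732 and 2684 TPM in DMSO and 2405, 2490 and 2622 at 72 h (−0.16, SE 0.04, adjusted p = 0.0018). ENO2 made up 0.563% ± 0.00560 of the enolase TPM in DMSO and 2.94% ± 0.0125 at 72 h. PGK1 had a value of 0.08 at 72 h, which did not pass the test.

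Among the members around lactate and pyruvate, PDK1 rose most. PDK1 phosphorylates pyruvate dehydrogenase and so keeps pyruvate out of the citric acid cycle. PDK1 (chr2:172555373-172608669, plus strand) was at 5.01, 3.72 and 6.38 TPM in DMSO, 10.9, 12.8 and 15.2 at 24 h, 14.3, 14.7 and 12.9 at 48 h and 24.5, 21.8 and 24.8 at 72 h. The 24 and 48 h libraries overlapped each other, and all lay above DMSO and below 72 h. Its log2 fold changes were 1.33, 1.47 and 2.18 (SE 0.07, 0.07 and 0.06, adjusted p = 1.3e-11, 2.4e-12 and 1.0e-14). PDK3 rose by 0.83, 1.04 and 0.74 at the same times. LDHA, which favors lactate, was at 1246, 1410 and 1346 TPM in DMSO, 2154, 1884 and 2267 at 24 h and 1800, 1768 and 1742 at 72 h. It rose by 0.57 at 24 h (SE 0.06, adjusted p = 1.0e-07) and 0.21 at 72 h (SE 0.06, adjusted p = 0.0028). LDHB rose by 0.82 at 24 h and 0.27 at 72 h, and its share of the LDHA and LDHB total was 34.9% ± 0.638 in DMSO and 35.3% ± 1.09 at 72 h, which overlapped. The monocarboxylate transporter SLC16A1 fell by 0.57 at 72 h.

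The 3 pentose phosphate genes shared no single course. TKT, the transketolase, was at 835, 892 and 880 TPM in DMSO, 383, 414 and 406 at 24 h and 829, 799 and 802 at 72 h, and it was past both limits at 24 h (−1.14, SE 0.05, adjusted p = 1.5e-12). PGD, which makes NADPH, was at 419, 440 and 439 TPM in DMSO, 278, 272 and 277 at 24 h and 376, 375 and 391.7 at 72 h. It fell at 24 h (−0.66, SE 0.05, adjusted p = 3.4e-09) and remained lower at 72 h (−0.23, SE 0.05, adjusted p = 0.00047). TALDO1 rose at 24 h (0.65) and fell at 72 h (−0.23).

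HIF1A, the transcript of HIF-1 alpha, was at 27.0, 24.1 and 24.0 TPM in DMSO, 48.8, 52.3 and 53.7 at 24 h, 56.4, 52.5 and 51.0 at 48 h and 43.0, 41.7 and 41.9 at 72 h. Its rise from 24 h on came to 1.05, 1.17 and 0.76 (SE 0.06 for each, adjusted p = 5.6e-11, 1.0e-11 and 2.3e-09). EPAS1, which encodes HIF-2 alpha, was nearly absent, with 5 to 13 counts per library in DMSO and 46 to 60 at 72 h (2.27, SE 0.25, adjusted p = 2.9e-07). Its effective length ranged from 463 to 5070 bases between libraries, so its counts are given in place of its TPM. EGLN3, the prolyl hydroxylase that HIF induces most strongly, was at 0.22, 0.46 and 0.21 TPM in DMSO, 0.82, 0.64 and 0.95 at 24 h and 2.93, 3.10 and 3.32 at 72 h. It rose at every time and reached 3.24 at 72 h (SE 0.22, adjusted p = 6.1e-10). EGLN1, the main oxygen sensor, was at 26.5, 23.7 and 25.1 TPM in DMSO and 38.9, 34.6 and 37.2 at 72 h, a smaller rise (0.44, SE 0.05, adjusted p = 1.8e-07).

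The genes listed under the HIF target role went both ways at 24 h and were higher at 72 h. All 8 tested members of this role rose at 72 h (38.8% of all genes), 6 of them past both limits (15% on the high side). At 24 h 4 rose and 3 fell (34.9% and 34.8%). Glucose transporters and glycolytic enzymes, which HIF can also raise, are under other roles and went both ways at 72 h. There SLC2A3 (5.29) and ENO2 (2.25) rose, while GPI (−1.23), ALDOC (−1.14), SLC2A1 (−0.18) and ENO1 (−0.16) fell. BNIP3, a mitophagy receptor, was at 19.1, 20 and 18.9 TPM in DMSO, 42.2, 39.9 and 64.4 at 24 h, 67.4, 76.4 and 89.8 at 48 h and 91.2, 90.9 and 92.4 at 72 h. Its values were 1.38, 2.00 and 2.22 (SE 0.13 for each, adjusted p = 6.1e-08, 3.9e-10 and 6.9e-11). P4HA1, a collagen prolyl hydroxylase, was at 37.1, 35.5 and 37.2 TPM in DMSO and 113, 107 and 120 at 72 h (1.57, SE 0.08, adjusted p = 8.1e-12). ANKRD37, a compact target gene, was at 2.36, 2.25 and 2.66 TPM in DMSO and 6.11, 7.64 and 7.81 at 72 h (1.31, SE 0.13, adjusted p = 1.1e-07). KDM3A, a histone demethylase, was at 19.0, 23.9 and 19.9 TPM in DMSO and 49.2, 46.8 and 52.8 at 72 h (1.15, SE 0.06, adjusted p = 4.4e-12). None of these groups overlapped DMSO at 72 h. ADM, the peptide adrenomedullin, fell at 24 h to 2.13, 1.67 and 1.81 TPM from 5.04, 6.10 and 4.85 (−1.54, SE 0.10, adjusted p = 7.8e-10) and was at 8.01, 8.05 and 8.68 TPM at 72 h (0.65).

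VEGFA and NDRG1 turned over the course. VEGFA, the main angiogenic growth factor, was at 43.3, 40.0 and 41.6 TPM in DMSO, 28.2, 28.7 and 35.6 at 24 h, 52.2, 53.4 and 50.1 at 48 h and 89.6, 105 and 98.6 at 72 h. It fell at 24 h (−0.42, SE 0.05, adjusted p = 1.2e-06), below every DMSO library, and rose at 72 h (1.2, SE 0.05, adjusted p = 7.8e-13). NDRG1, a stress-induced gene, was at 192, 217 and 207 TPM in DMSO, 143, 148 and 160 at 24 h and 428, 415 and 456 at 72 h. It fell at 24 h (−0.51, SE 0.04, adjusted p = 2.0e-08) and rose at 72 h (0.94, SE 0.04, adjusted p = 3.6e-12). BNIP3L, a related mitophagy receptor, was at 57.3, 65.4 and 62.7 TPM in DMSO and 116, 95.99 and 109 at 72 h (1.17, SE 0.13, adjusted p = 2.7e-07). At 24 h its TPM, 34.7, 29.6 and 48.6, lay below DMSO, while its fitted value of −0.30 did not pass the test. BNIP3 went from 23.9% ± 0.967 of the BNIP3 and BNIP3L total to 56.4% ± 1.35 after a day of UM171 and 46.1% ± 2.32 after 72 h.

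**Figure D2:**
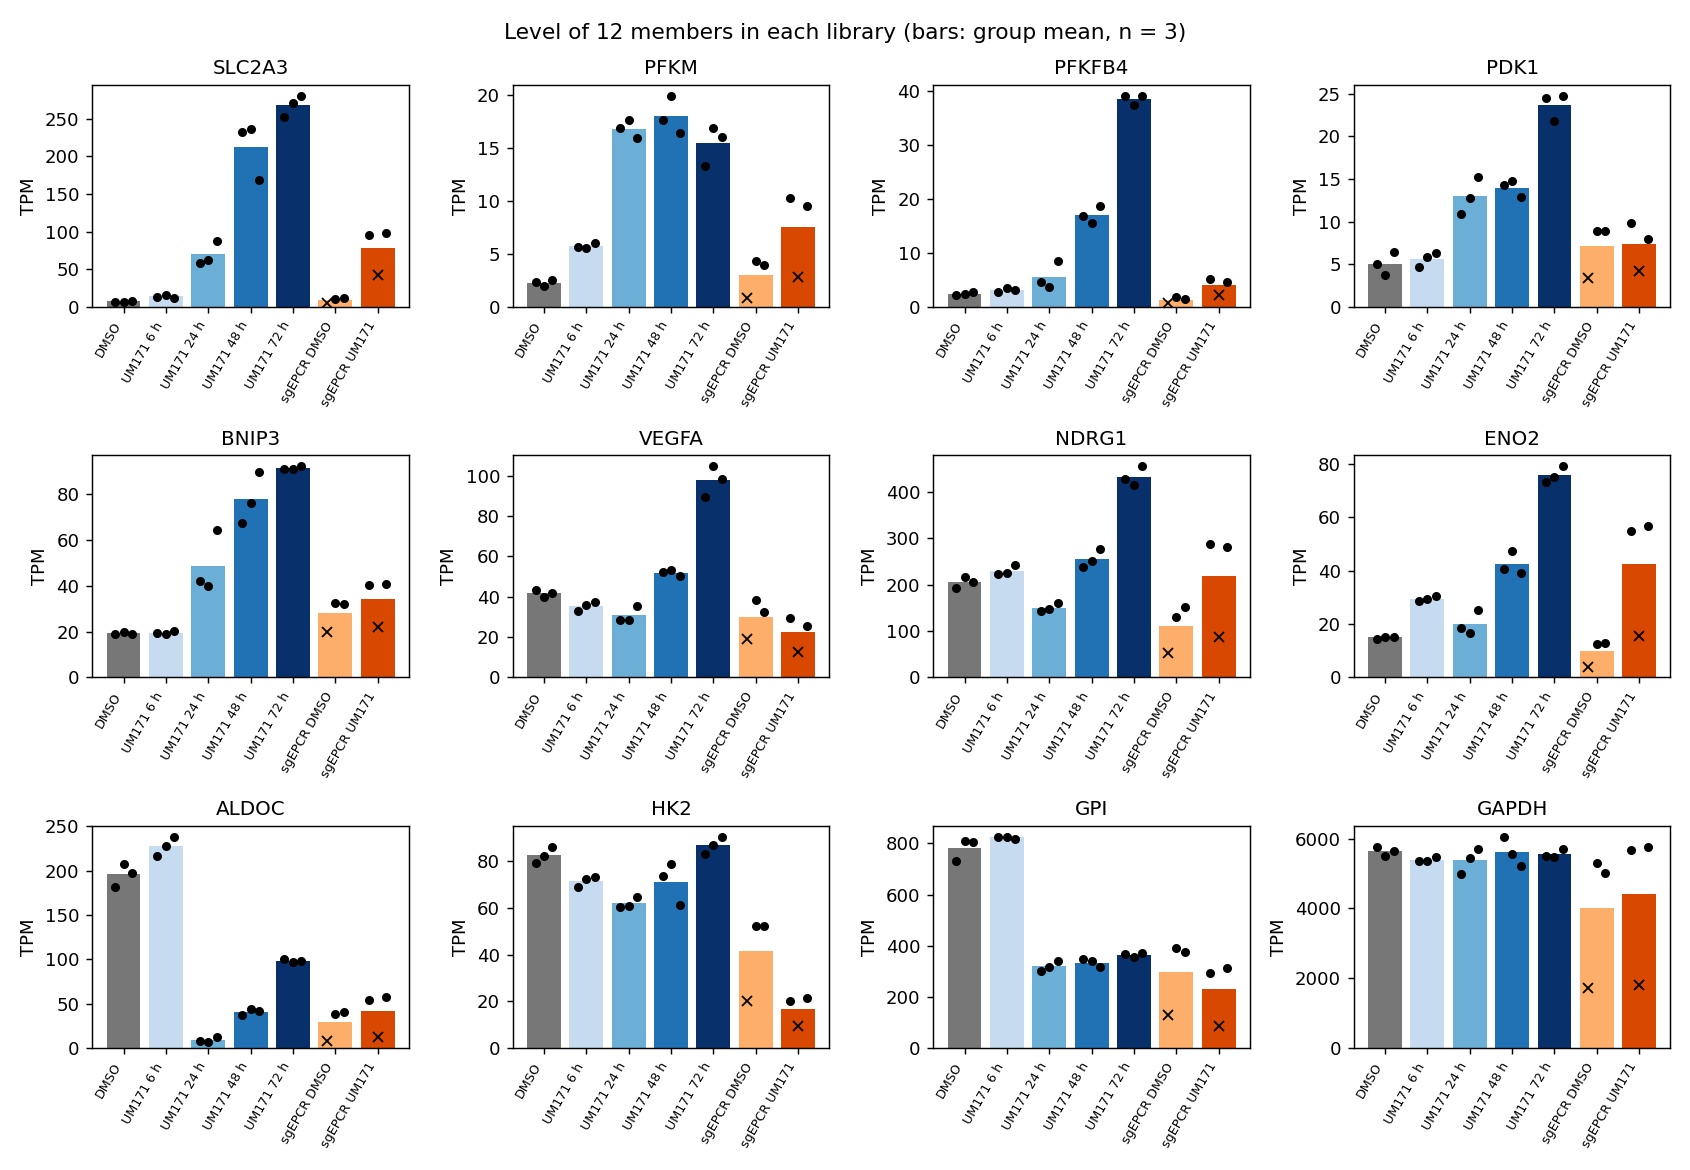
TPM of 12 members in each library (dots; crosses mark the 2 sgEPCR libraries with over 20% mitochondrial counts) with the group mean (bars, n = 3), one panel per gene with its own axis from 0. SLC2A3 climbed from 7.14 to 7.25 TPM in DMSO to 253 to 281 at 72 h, ALDOC was lowest at 24 h, and GAPDH overlapped between control groups.

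Between 24 and 72 h in UM171, 12 members were past both limits on the high side (8.89% of all genes) and 0 on the low side (3.04%). At an adjusted p under 0.05, 25 rose and 11 fell (36.4% and 33.4%). All 8 tested HIF targets rose between these times. The largest rises were those of ALDOC (3.52), PFKFB4 (2.77, SE 0.19), SLC2A5 (2.19, SE 0.10), ADM (2.18, SE 0.10), HK3 (2.13, SE 0.19), SLC2A3 (1.98, SE 0.09), ENO2 (1.86, SE 0.10) and EGLN3 (1.76, SE 0.19). VEGFA (1.62, SE 0.05), BNIP3L (1.46, SE 0.13), NDRG1 (1.45, SE 0.05) and P4HA1 (1.27, SE 0.08) completed the 12. Of the 15 members that fell at 24 h, 11 rose between 24 and 72 h, and 5 of them, SLC2A5, HK3, VEGFA, NDRG1 and ADM, were above DMSO at 72 h by the same test. The 24 h libraries served in both comparisons, so these counts share samples. By fitted values alone, without a test, the highest of the 4 time points was 72 h for 25 of the 42 members. Higher at each time than at the one before were 14 members. These include SLC2A1 and SLC16A3, whose values stayed below DMSO throughout (−0.18 and −0.05 at 72 h). No such counts were made over all genes.

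Abundance and change were unevenly spread over the members. The 10 members of highest mean TPM in the 15 control-cell libraries were GAPDH, ALDOA, ENO1, LDHA, PKM, LDHB, PGK1, TPI1, TKT and GPI. Their median absolute log2 fold change at 72 h was 0.24, beside 0.99 for the other 32 tested members. At 72 h, 1 of the 10, GPI, and 16 of the 32 had changed by more than 2-fold. At 48 h these medians were 0.58 and 0.59. The same split by level was not made over all genes, so whether it is particular to the members was not tested. The less abundant members include EPAS1, ADM and EGLN3, whose lowest libraries had 1, 4 and 8 counts. The summed TPM of lower glycolysis was 10520 to 10630 in DMSO and 10535 to 11165 at 72 h, which overlapped, while that of the 9 HIF targets was 375 to 411 in DMSO and 877 to 945 at 72 h.

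**Figure D3:**
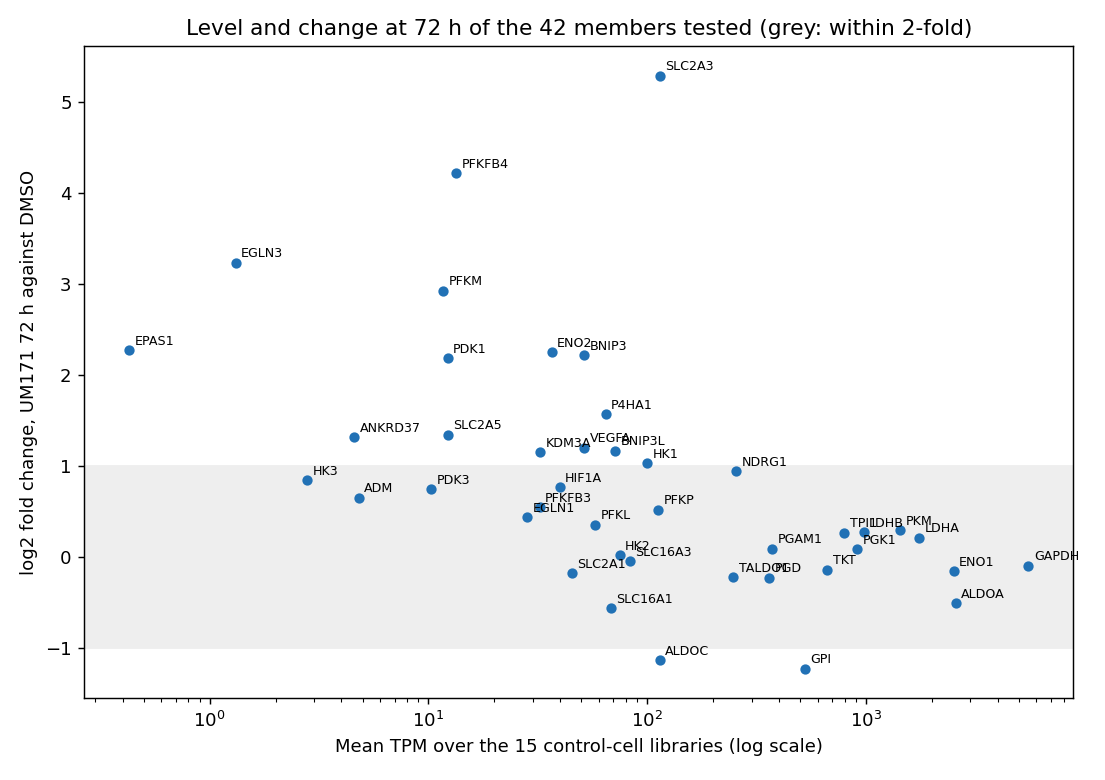
log2 fold change at 72 h of UM171 against DMSO (vertical axis) by mean TPM over the 15 control-cell libraries (horizontal axis, log scale) for the 42 tested members, with the range within 2-fold in grey. Of the 10 most abundant members only GPI lies outside the grey range, and SLC2A3 at 5.29 and PFKFB4 at 4.22 lie highest.

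**Figure D4:**
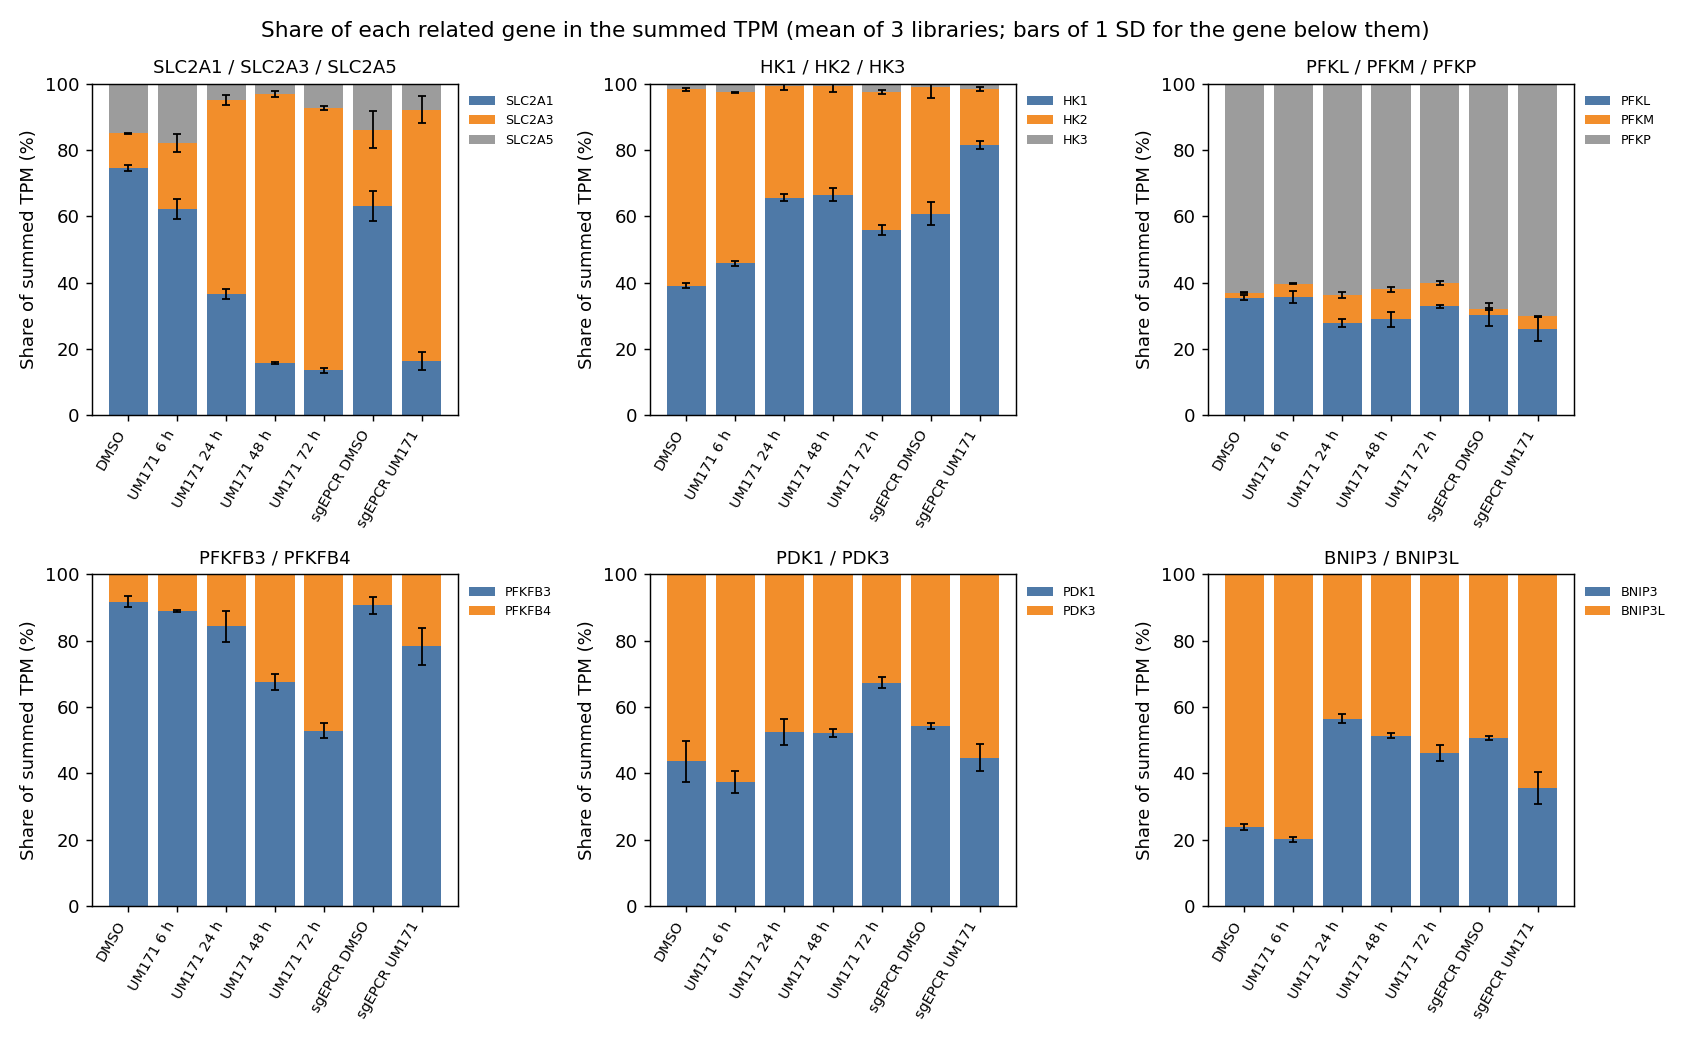
Share of each gene in the summed TPM of its related genes (percent, mean of 3 libraries, with bars of 1 SD) in the 7 groups for 6 families. SLC2A3 went from 10.4% of its family in DMSO to 79.1% at 72 h, and PFKFB4 from 8.30% to 47.1%.

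Genes of the same pathways outside the members were counted from other lists, chosen with earlier results of these data known. Of all genes tested, 38.8% rose and 36.8% fell at 72 h, 15% and 5.80% past both limits. At 24 h 34.9% of all genes rose and 34.8% fell. Of 25 other HIF targets 22 were tested, and 20 rose and 1 fell at 72 h, 12 of them past both limits on the high side. The largest were DDIT4, an inhibitor of mTOR signaling (5.39, SE 0.14), ZNF395 (2.92, SE 0.07), PLOD2, a collagen lysyl hydroxylase (2.30, SE 0.10), and MXI1, a MYC antagonist (1.99, SE 0.07). Their median was 1.5 at 72 h and 0.19 at 24 h, where 10 rose and 7 fell. Of the 16 genes of the citric acid cycle 2 rose and 7 fell at 72 h, and none passed both limits at any time. Of the 12 tested HIF pathway regulators 3 rose and 6 fell at 72 h, none past both limits. Among 15 tested genes of lactate and pyruvate entry 7 rose and 6 fell, with LDHD, a D-lactate dehydrogenase, at 2.74 (SE 0.19). Among 11 other glycolysis genes 4 rose and 4 fell, with PGM1 at 1.21 (SE 0.05), and among 8 other pentose phosphate genes 4 rose and 3 fell, with RPIA at −1.04 (SE 0.05).

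The sgEPCR libraries address whether the response to UM171 differs in sgEPCR cells. Within sgEPCR cells, UM171 raised SLC2A3, ENO2 and EPAS1 and lowered HK2 past both limits. These were 3 members on the high side (6.99% of the 15901 genes tested) and 1 on the low side (3.33%). At an adjusted p under 0.05, 12 rose and 11 fell (27.0% and 25.1%), and without the 2 libraries of high mitochondrial share 16 rose and 17 fell (34.5% and 36.4%), 5 and 2 of them past both limits (9.98% and 5.72%). The 22 members called in both fits kept their direction. The median of the members was −0.06 with and −0.03 without them.

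SLC2A3 was at 4.77, 10.1 and 11.4 TPM in sgEPCR DMSO and 95.0, 42.6 and 98.0 in sgEPCR UM171, without overlap (2.94, SE 0.13, adjusted p = 4.0e-08; without the 2 libraries 2.91). HK2 was at 20.1, 52.4 and 52.4 TPM in sgEPCR DMSO and 19.96, 9.44 and 21.2 in sgEPCR UM171. It fell by a log2 fold change of 1.55 (SE 0.09, adjusted p = 3.3e-07; without the 2 libraries −1.56). Its TPM overlapped only through sgEPCR DMSO replicate 1, a library of high mitochondrial share. ENO2 was at 3.87, 12.5 and 12.96 TPM and then 54.9, 15.6 and 56.8, without overlap (1.89, SE 0.25, adjusted p = 9.9e-05; without the 2 libraries 1.98). EPAS1 had 1 to 7 counts in sgEPCR DMSO and 68 to 108 in sgEPCR UM171 (3.96, SE 0.35, adjusted p = 5.3e-06; without the 2 libraries 3.61).

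The difference between the responses was tested as an interaction in the fit of 12 libraries, where both UM171 groups had 24 h. It was past both limits for 7 members, 2 with a higher response in sgEPCR cells (3.60% of all genes) and 5 with a lower one (4.17%). At an adjusted p under 0.05, 9 were higher and 13 lower (21.9% and 23.1%). Without the 2 libraries 14 were higher and 20 lower (33.6% and 35.6%), 6 of the higher and 8 of the lower ones past both limits (9.28% and 9.79%), and all 22 called with every library were called in the same direction. The time of the DMSO libraries was 72 h for control cells and 24 h for sgEPCR cells, so genotype and time in DMSO cannot be told apart in this difference. With limma on log2(TPM + 1) 2 members passed an adjusted p under 0.05 and 0 both limits, and with total count scaling 14 and 0. Of the 15901 genes, limma called 1316 higher and 631 lower at that adjusted p, 24 and 3 past both limits. Total count scaling called 3146 higher and 2123 lower, 269 and 155 past both limits. The count of members past both limits was 0 without any 1 DMSO replicate, UM171 24 h replicate 1 or 2 or sgEPCR DMSO replicate 3, 1 without sgEPCR DMSO replicate 2, 2 without UM171 24 h replicate 3 and 3 without sgEPCR UM171 replicate 1 or 3.

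ALDOC differed most. Its response was −4.59 (SE 0.38) in control cells and 0.36 (SE 0.33) in sgEPCR cells, a difference of 4.94 (SE 0.50, adjusted p = 2.2e-05; without the 2 libraries 5.08). Its sgEPCR libraries were at 8.21, 38.2 and 40.2 TPM in DMSO and 54.4, 12.4 and 57.1 in UM171. All 3 sgEPCR DMSO libraries were below every DMSO control library, and all 3 sgEPCR UM171 libraries were above every UM171 24 h library of control cells, where the highest was 12.3. NDRG1 fell in control cells and rose in sgEPCR cells (0.88, SE 0.11), a difference of 1.39 (SE 0.16, adjusted p = 4.5e-05; without the 2 libraries 1.45). Its sgEPCR libraries were at 52.7, 130 and 152 TPM in DMSO and 287, 87.9 and 281 in UM171, and they overlapped through the 2 libraries.

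The 5 members with a lower response were PDK1, LDHB, TALDO1, HK2 and HK1. PDK1 was at 3.41, 8.93 and 8.94 TPM in sgEPCR DMSO and 9.84, 4.19 and 7.95 in sgEPCR UM171, which overlapped (−0.16, SE 0.11, not past the test). Its difference was −1.50 (SE 0.16, adjusted p = 3.7e-05), and it was higher in sgEPCR DMSO than in DMSO (1.00, SE 0.12, adjusted p = 8.9e-05), the one member past both limits there (1.43% of all genes on the high side, and 1.41% on the low side) and past none once any 1 library was left out. HK1 was at 37.5, 73.2 and 82.5 TPM and then 101, 46.7 and 96.4, with a response of 0.07 that did not pass the test and a difference of −1.08 (SE 0.10, adjusted p = 1.8e-05). HK2 differed by −1.12 (SE 0.13, adjusted p = 5.9e-05). LDHB rose in control cells (0.82) and fell in sgEPCR cells (−0.56, SE 0.10), a difference of −1.39 (SE 0.14, adjusted p = 1.9e-05). TALDO1 did likewise (0.66 and −0.69), a difference of −1.35 (SE 0.15, adjusted p = 3.9e-05). Without the 2 libraries the differences were −1.59 for PDK1, −1.34 for LDHB, −1.36 for TALDO1, −1.12 for HK2 and −1.0 for HK1. The responses within sgEPCR cells were then 0.94 for NDRG1, −0.53 for LDHB and −0.71 for TALDO1, and 3 that had not passed the test with all libraries did so: ALDOC at 0.40 (SE 0.12, adjusted p = 0.0070), PDK1 at −0.27 (SE 0.07, adjusted p = 0.0029) and HK1 at 0.13 (SE 0.04, adjusted p = 0.0041).

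**Figure D5:**
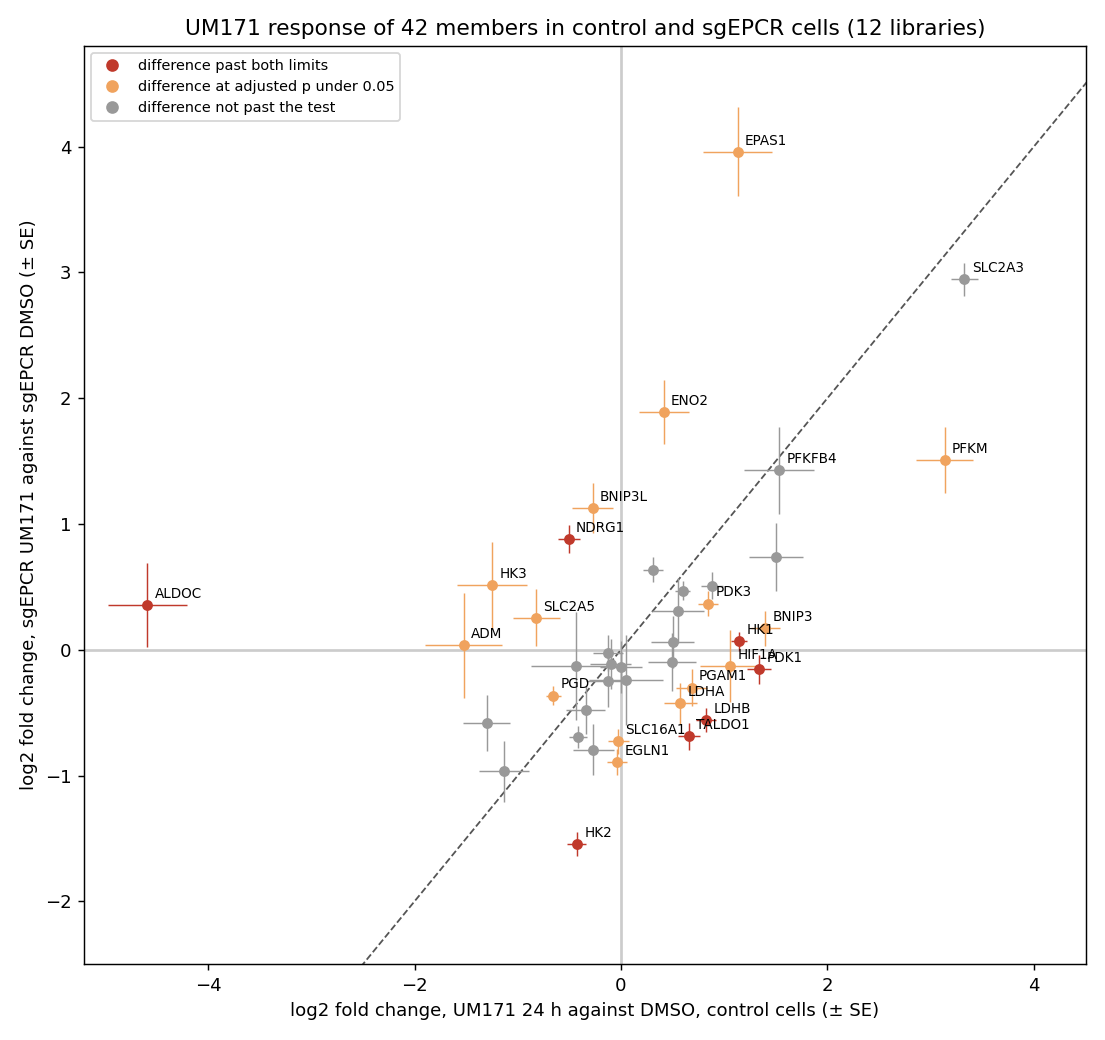
log2 fold change of UM171 for the 42 tested members in control cells at 24 h (horizontal axis) and in sgEPCR cells at 24 h (vertical axis), from 1 fit of 12 libraries, with bars of 1 SE, a dashed line of equal response and the color giving the test of the difference. ALDOC lies far to the left at −4.59 and 0.36, and SLC2A3 lies close to the line at 3.33 and 2.94.

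Other members with a difference at an adjusted p under 0.05 were PFKM (−1.63, SE 0.37, adjusted p = 0.0043), BNIP3 (−1.23, SE 0.20, adjusted p = 0.00050), HIF1A (−1.19, SE 0.41, adjusted p = 0.034), LDHA (−1.0), PGAM1 (−0.99), EGLN1 (−0.86), SLC16A1 (−0.70) and PDK3 (−0.48) on the low side. On the high side were EPAS1 (2.83, SE 0.50, adjusted p = 0.0010), HK3 (1.76), ADM (1.56), ENO2 (1.47, SE 0.35, adjusted p = 0.0055), BNIP3L (1.40), SLC2A5 (1.08) and PGD (0.29). Without the 2 libraries the differences on the low side were −1.58 for PFKM, −1.16 for BNIP3, −1.17 for HIF1A, −0.96 for LDHA, −0.90 for PGAM1, −1.0 for EGLN1, −0.79 for SLC16A1 and −0.58 for PDK3. On the high side they were then 2.5 for EPAS1, 1.90 for HK3, 1.41 for ADM, 1.61 for ENO2, 1.37 for BNIP3L, 1.13 for SLC2A5 and 0.37 for PGD. BNIP3 was at 19.7, 32.4 and 32.0 TPM in sgEPCR DMSO and 40.5, 21.9 and 40.9 in sgEPCR UM171, with a response of 0.17 that did not pass the test (0.21 without the 2 libraries). HIF1A was at 51.3, 34.9 and 33.9 TPM and then 36.2, 56.3 and 38.7, highest in the 2 libraries with most mitochondrial counts. SLC2A3 had a difference of −0.38 (SE 0.17, adjusted p = 0.092), which did not pass the test with or without the 2 libraries (−0.39 without them), with a 24 h response of 3.33 in control cells.

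Between the genotypes in DMSO, 12 members were higher and 8 lower in sgEPCR cells (17.4% and 16.3% of all genes), where time and genotype cannot be told apart. ALDOC (−2.52, SE 0.35), ADM (−2.37, SE 0.40) and GPI (−1.12, SE 0.23) were lower, and PDK1, HIF1A (1.02, SE 0.29) and BNIP3 (0.91, SE 0.14) higher. Between the genotypes in UM171 at 24 h, which were matched for time, 7 members were higher and 11 lower (20.8% and 22.2%). HK2 was the one past both limits (−1.73, SE 0.09, adjusted p = 5.2e-07), beside 1.79% of all genes on the low side and 2.67% on the high side. PROCR itself had a value of −2.63 there (SE 0.12, adjusted p = 1.9e-07). Without the 2 libraries 18 members were higher and 14 lower in DMSO (30.3% and 30.0%), 0 and 2 of them past both limits (3.11% and 3.40%). In UM171 12 were then higher and 18 lower (32.4% and 35.9%), 4 and 1 of them past both limits (6.09% and 3.78%). PDK1 missed the fold limit in DMSO without them, at 0.97, and HIF1A was at 0.63, down from 1.02, while ALDOC was at −2.28, ADM at −2.0, GPI at −0.95 and BNIP3 at 0.86. In UM171 HK2 was then at −1.66 and PROCR at −2.59.

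Of the 16 citric acid cycle genes 0 had a higher and 11 a lower response in sgEPCR cells at an adjusted p under 0.05 (21.9% and 23.1% of all genes). FH at −1.60 (SE 0.11) and SUCLG2 at −1.20 (SE 0.12) were past both limits. Without the 2 libraries 1 had a higher and 14 a lower response (33.6% and 35.6% of all genes), with FH at −1.58 and SUCLG2 at −1.23. Of 21 tested other HIF targets 6 had a higher and 7 a lower response, and 9 and 10 of 22 without the 2 libraries, beside the same shares of all genes. Here too genotype and labelled time in DMSO cannot be told apart. P4HA2, a collagen prolyl hydroxylase, differed by 3.88 (SE 0.27), BHLHE40 by 3.25 (SE 0.14) and CXCR4 by 1.98 (SE 0.17), and without the 2 libraries these were 3.96, 3.31 and 2.08.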

How the data were processed

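RNA-seq of 21 OCI-AML5 libraries was analysed from 1 table per library. The authors deposited RSEM expected counts per gene, without normalization, and TPM, which RSEM scales by effective length to the same total in each library. The deposited effective length and the posterior standard deviation of the count, were used only for checks. The submitters' processing notes name CASAVA 1.8.2, Trimmomatic 0.35, STAR 2.5.1b, RSEM 1.2.28 and GRCh38, while the study's methods name kallisto and sleuth for its own statistics. The labels give 500 nM UM171 and the study's legend another dose. Pseudoautosomal genes listed again for Y (45) were joined with X, leaving 58174 gene identifiers, 57392 with a symbol.

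Expected counts were rounded and tested with edgeR 4.0.16 in R 4.3.3 (filterByExpr, TMM, glmQLFit and glmQLFTest, Benjamini-Hochberg adjustment over all genes tested). The time course fit held 15 libraries and 16575 genes, and the sgEPCR fit 12 libraries and 15901 genes, after the groups in the labels. SE comes from the F statistic (size of the change over root F). limma 3.58.1 and DESeq2 1.42.0 served as alternatives, with other scalings, filters, library choices, a replicate block, sums with pseudogenes and each library left out. Shares between related genes used exact two-sided permutation tests of 3 against 3 libraries. Depth was 24.3 to 51.5 M counts. Against the 3 counts taken as the smallest signal (counting error only), CA9 had at most 1 count, and the lowest library of EPAS1 had 1, of ADM 4, of EGLN3 8 and of every other member at least 21. Reads of pseudogenes named after a member came to at most 2.87% of the count of member and pseudogenes together (BNIP3). No library pair within a group agreed within sampling noise, and pairs between groups were not checked. Scripts were tested on simulated data. Members, lists, motifs and tests were chosen with earlier results of these data known. Named were 17 fixed members, members past both limits (at most the 12 largest per comparison), isoenzymes side by side and up to 4 genes per other list, of which 1 is not reported here. Figures used Python 3.11.15 and matplotlib 3.10.9.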

Additional observations from a re-analysis of the deposited data

Results flagged for a closer look

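The response to UM171 at 24 h differed between sgEPCR and control cells past both limits for 7 members, by edgeR's test of the difference itself. As log2 fold changes, sgEPCR minus control, the differences were 4.94 for ALDOC and 1.39 for NDRG1, and −1.50 for PDK1, −1.39 for LDHB, −1.35 for TALDO1, −1.12 for HK2 and −1.08 for HK1. All 7 kept their direction without the 2 sgEPCR libraries of high mitochondrial share. The count of members past both limits was 0 with limma on log2(TPM + 1), total count scaling or a replicate block, and without any 1 DMSO replicate of control cells. Over all genes the calls past both limits also fell, from 573 higher and 663 lower to 24 and 3 with limma and 269 and 155 with total count scaling. The DMSO libraries of the genotypes also differ in labelled time, which cannot be told apart from genotype.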

How the results depend on the processing

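Having 3 libraries a group and DMSO libraries of other labelled times limits these comparisons. Values here are members past both limits, members at an adjusted p under 0.05, or the median log2 fold change of the members. Calls over all genes also changed with the setting and are not set beside these values. At 6 h, limma on log2(TPM + 1) gave 1, 10 and a median of 0.00346, total count scaling a median of 0.0222, upper quartile scaling −0.0654, no filter −0.22, at least 10 counts in every library 1 and −0.12, and all 21 libraries in 1 fit 1 and 15. The medians at 24 h were 0.0469 with no filter and 0.0624 with at least 10 counts. At 48 h they were 0.31 with limma, 0.52 with no filter and 0.36 with at least 10 counts, and at 72 h 0.60 with upper quartile scaling, 0.61 with total counts and 0.58 with at least 10 counts. An adjusted p under 0.05 with over 1.5-fold gave 6 at 6 h, 22 at 24 h, 19 for 72 against 24 h, 16 within sgEPCR cells, 15 between genotypes in DMSO, 12 in UM171 and 20 for the difference of responses.

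Within sgEPCR cells limma gave 0 and 7, total counts 15 at the adjusted p, and the fit without the 2 libraries 7 past both limits. Between genotypes in DMSO, DESeq2 gave 4, limma 0 and 3, upper quartile scaling 0, total counts 0 and 12, no filter 2, at least 10 counts 0, all 21 libraries 4, no mitochondrial genes 0, and the fit without the 2 libraries 2 and 32. In UM171, DESeq2 gave 6, limma 0 and 1, total counts 0 and 11, no filter 2, all 21 libraries 5, and the fit without the 2 libraries 5 and 30. For the difference of responses limma gave 0 and 2, total counts 0 and 14, and the fit without the 2 libraries 14 and 34.

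With the replicate number as a block, the counts past both limits were 1 within sgEPCR cells, 0 between genotypes in DMSO (13 at the adjusted p), 0 in UM171 and 0 for the difference of responses, and the time course counts stayed within 1.5 times. The deviations of same-numbered libraries correlated at −0.0788 to 0.0548 within control cells, −0.0815 to 0.0998 between genotypes and −0.563, −0.561 and 0.412 between sgEPCR DMSO and sgEPCR UM171, where the 2 libraries of high mitochondrial share carry different numbers. No set of pairs was above 0.1 throughout, and the main fits used no replicate block. Across numbers, sgEPCR DMSO replicate 1 and sgEPCR UM171 replicate 2, the libraries of high mitochondrial share, correlated at 0.66. The labels do not say which libraries shared a culture or clone, and this check cannot tell.

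Single genes changed sign in 9 cases. At 6 h these were PGK1 at 0.0317, GPI at 0.0463 and LDHB at 0.0815 with total counts, and GPI at 0.0761, LDHB at 0.12 and ALDOA at 0.0387 with limma. With limma PDK1 was at 0.07003 within sgEPCR cells, and PKM at −0.0147 and KDM3A at −0.28 between genotypes in DMSO. In 365 other cases a single gene kept its sign but lost its adjusted p under 0.05 in another setting. Of these, 105 were with limma, 52 with total counts and 42 with all 21 libraries in 1 fit. In 17 cases a gene gained it, and 4096 cases kept both sign and call. The causes were not tested.

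With each library left out in turn, the counts past both limits, the counts at the adjusted p and the medians ranged over 1 to 2, 27 to 30 and −0.21 to −0.15 at 6 h (1 without DMSO replicate 2 or UM171 6 h replicate 1), 10 to 12, 35 to 38 and 0.12 to 0.21 at 24 h, 14 to 17, 35 to 37 and 0.42 to 0.45 at 48 h, and 17, 35 to 37 and 0.52 to 0.54 at 72 h. They ranged over 12 to 14, 34 to 37 and 0.43 to 0.48 for 72 against 24 h, 3 to 5, 21 to 25 and −0.14 to 0.13 within sgEPCR cells, 0, 15 to 21 and −0.13 to 0.01 between genotypes in DMSO, 1 to 2, 15 to 20 and −0.33 to −0.17 in UM171 (2 without sgEPCR UM171 replicate 2), and 0 to 7, 19 to 25 and −0.34 to −0.19 for the difference of responses.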
